A study of Clarias macrocephalus with 14 samples.

Results

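Fry of the broadhead catfish Clarias macrocephalus at 16 days post fertilization (dpf) were compared with fry at 3 dpf, to see which genes differed and which held their level between these ages. The comparison rests on 4 of the 14 libraries of the series, 2 of 16 dpf and 2 of 3 dpf, each made from whole fry of unknown sex with no treatment named in the labels. The series covers 7 ages, 3, 5, 13, 14, 16, 17 and 24 dpf, with 2 libraries at each, and accompanies a study of genes involved in air breathing. The labels do not say what separates the replicates of an age (spawn, tank or pool). The p-values thus reflect no more than the spread between replicates, estimated over all 14 libraries unless stated otherwise, and that spread may be technical. In whole fry, fewer cells of a type and less RNA per cell cannot be told apart.

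Catfish of the genus Clarias take up oxygen through the gills and, when older, also from swallowed air, with a branched organ above the gills. Newly hatched fry live on yolk, and older fry feed, swim and grow, so tissues such as muscle, gut, skeleton and blood change in their share of the body between these stages. The deposited table names no gene: each line is a transcript with an identifier that the table calls a Gene ID. Members were the Gene IDs written in digits alone, 23837 of 25238, with the counts of their 166841 transcripts summed per Gene ID. The summed Gene IDs held 99.6 and 99.7% of the counts at 16 dpf, against 99.4 and 99.5% at 3 dpf. Since nothing in the files pairs Gene IDs with names, no pathway or tissue is named, and only a few Gene IDs are given as examples.

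Depth differed between the ages. The summed counts were 6378996 and 8806313 in the libraries of 16 dpf, against 2376118 and 2381951 at 3 dpf. The remaining ages had 1438364 to 5470833. The factors that scale each library by trimmed mean of M values (TMM) were 1.33 and 1.32 at 16 dpf, against 1.31 and 1.22 at 3 dpf, so these ages were scaled alike. They were 0.391 to 0.657 at 17 and 24 dpf, where a few Gene IDs took up much of each library. Levels are given as CPM, counts per 1e+06 TMM-scaled library counts. Counts of the replicates of an age varied beyond sampling noise at 16 and 3 dpf, so all 4 libraries were kept as separate samples.

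Whether 16 and 3 dpf are alike depended on the measure. Across the 18644 Gene IDs (78.2% of the members) that passed a low-count filter, Pearson's r of log2 CPM between libraries of 16 and 3 dpf was 0.841 to 0.855, with a mean of 0.848. Gene IDs do not stand in for replicates, and these values are descriptions. The mean was the highest of 3 dpf with any other age. The next were 0.836 with 13 dpf and 0.834 with 5 dpf, and the lowest was 0.806 with 14 dpf. For 16 dpf the order was different: its mean r was 0.92 with 14 dpf, 0.882 with 13 dpf, and 0.848 with 3 dpf, close to 0.847 with 5 dpf. The age with the highest mean r was 16 dpf for 5, 13 and 14 dpf as well, though not for 17 and 24 dpf. This place of 16 dpf was thus not particular to 3 dpf. Between replicates r was 0.991 at 16 dpf and 0.968 at 3 dpf. The typical distance between libraries of 16 and 3 dpf, the root mean square difference of log2 CPM, was 1.06, against 1.11 for both 5 and 13 dpf with 3 dpf. It was 0.246 between the replicates of 16 dpf and 0.497 between those of 3 dpf.

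**Figure D1:**
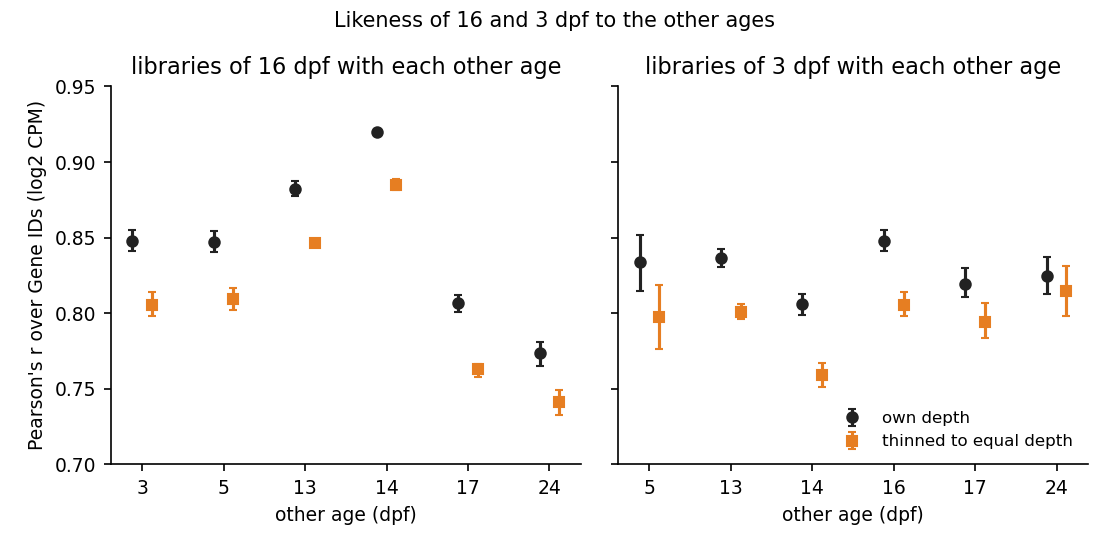
Pearson's r of log2 CPM over Gene IDs between the libraries of 16 dpf (left) or 3 dpf (right) and those of each other age, at own depth (circles) and with all libraries thinned to the smallest total (squares); points are means over 4 pairs of libraries and bars run from the lowest to the highest. The mean r of 16 with 3 dpf, 0.848 at own depth, was the highest of the 3 dpf panel, while at equal depth 24 dpf had the highest mean there, 0.814.

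The place of 16 dpf as the age most like 3 dpf was not stable. With all libraries thinned to the smallest total, its mean r with 3 dpf was 0.806, below 0.814 for 24 dpf, while its root mean square distance, 0.985, was still the lowest for 3 dpf, against 1.01 for 5 and 13 dpf. With Spearman's rho the means were 0.842 with 16 dpf and 0.843 with 5 dpf. On single transcripts in place of sums, r was 0.882 to 0.89 with 16 dpf, and the next highest mean was 0.856 with 17 dpf. The most abundant Gene IDs were largely shared: 79 of the 100 with the highest mean CPM at 16 dpf were also among the 100 highest at 3 dpf. Among the 21 pairs of ages only 24 with 17 dpf shared more, 82. The place depended on the length of the list. Of the 20 highest 15 were shared, with 4 pairs of ages sharing more, and of the 1000 highest 687 were shared, with 6 pairs sharing more, among them 13 with 3 dpf (715). Gene ID by Gene ID, the age nearest to 3 dpf in mean log2 CPM was 5 dpf for 19.8%, 13 dpf for 19.3%, 17 dpf for 18.4%, and 16 dpf for 14.8%.

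Many levels nevertheless differed. Between 16 and 3 dpf, 8865 of 18644 Gene IDs (47.5%) differed (adjusted p under 0.05, quasi-likelihood F test of edgeR, Benjamini-Hochberg adjustment over all tested), with 4626 higher (24.8%) and 4239 lower (22.7%) at 16 dpf. In 8848 of these, both libraries of an age lay above both of the other, which was also so for 76.7% of all tested Gene IDs. Set beside the same count for the 21 pairs of ages, this was the eleventh lowest, within a range of 4732 (25.4%) for 24 against 17 dpf to 10660 (57.2%) for 17 against 5 dpf. Set against 3 dpf, fewer Gene IDs differed for 5 dpf (8420, 45.2%), 13 dpf (7642, 41%), 17 dpf (7143, 38.3%) and 24 dpf (6058, 32.5%), and more for 14 dpf (9844, 52.8%). These pairs share libraries and differ in depth and spread, so that the counts stand side by side without a test of their difference. The share higher among those that differed was 52.2% with TMM, 49.1% with upper-quartile scaling and 48.3% without the 20 most abundant Gene IDs, so which direction prevailed was not settled.

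Among the Gene IDs that differed, rises were larger than falls. The median log2 change was 1.24 among the Gene IDs that rose and -0.91 among those that fell, beside 0 over all tested, and 1.22 and -0.91 among those counted at both ages. The quartiles over all tested were -0.54 and 0.65. The median standard error was 0.25 among those that rose and 0.195 among those that fell, and a larger standard error raises the change needed for a call. Gene IDs with no count at an age are left out of the following counts, except where stated. Changes of 2-fold or more were seen in 2785 Gene IDs that were higher at 16 dpf and 1792 that were lower. For 4-fold or more the counts were 1053 higher and 234 lower, and for 16-fold or more 109 higher and 25 lower. A further 75 called higher had no count at 3 dpf and 13 called lower none at 16 dpf, and their fitted folds depend on the prior count. Tested directly against a 2-fold limit with edgeR's glmTreat, 1346 Gene IDs were higher and 520 lower by more than that at an adjusted p under 0.05. That test took in all 18644 Gene IDs, also those with no count at an age. The excess of large rises was seen at every level: among the most abundant 3729 Gene IDs 109 passed 4-fold upward and 30 downward, and among the least abundant 3729 the counts were 431 upward and 108 downward. With Gene IDs of no count at an age included, it was also seen with all libraries thinned to equal depth, with 885 upward and 231 downward past 4-fold, and with upper-quartile scaling, with 1073 and 266.

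**Figure D2:**
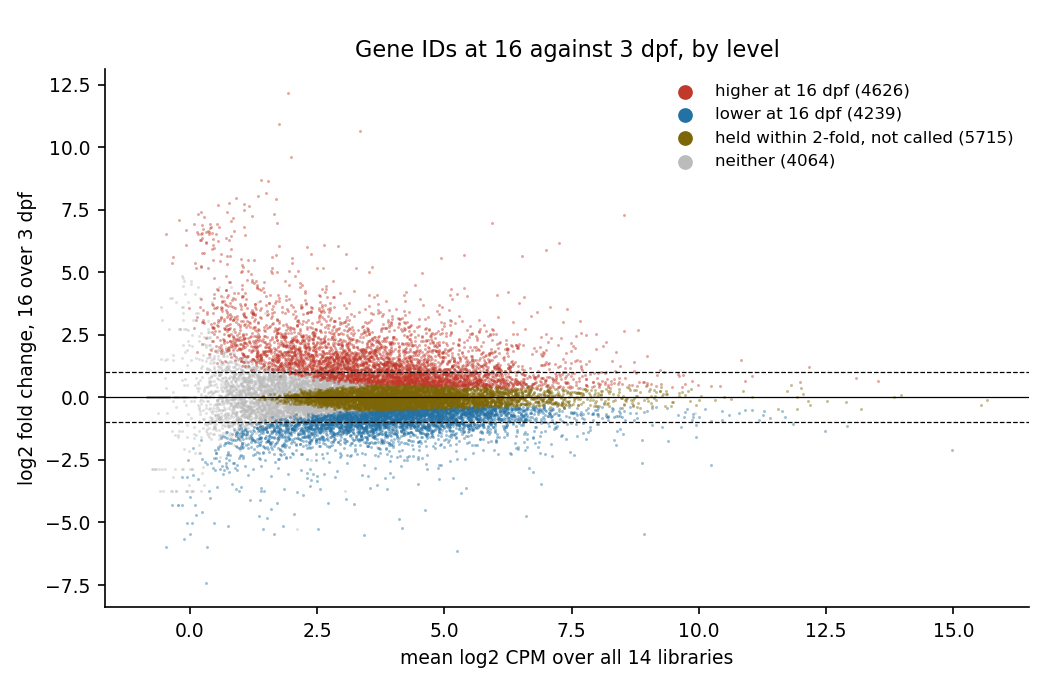
Fitted log2 fold change of 16 over 3 dpf for each of the 18644 Gene IDs tested, against the mean log2 CPM over all 14 libraries; dashed lines mark 2-fold. Higher Gene IDs (4626) reach further from 0 than lower ones (4239), in part Gene IDs with no count at 3 dpf whose folds depend on the prior count, and held ones (5715) lie between the dashed lines, mostly right of the low levels where neither could be shown.

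Few Gene IDs were counted at a single age of the pair. Of those tested, 18360 (98.5%) had at least 1 count at both ages and 18057 (96.9%) at least 3. No count was found at 3 dpf for 243 and at 16 dpf for 164. Some had none at either age and passed the filter through the other ages, so neither a difference nor a held level could be shown for them. A total of 73 tested Gene IDs had no count in either library of 3 dpf and at least 20 over the libraries of 16 dpf. A single Gene ID had the reverse. The libraries of 16 dpf are deeper, and the part of depth in this difference was not tested.

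A level was called held where the difference was shown to lie within 2-fold either way, by a pair of one-sided tests on the same fit with the larger p adjusted over all Gene IDs. By this test 7130 Gene IDs (38.2%) held their level. Of these, 1415 also differed, by less than 2-fold, with 557 higher and 858 lower at 16 dpf. The other 5715 held without a call of difference. A further 4064 (21.8%) were neither called nor held, so that nothing could be said of them. The median log2 change of the held Gene IDs was -0.04, with quartiles of -0.27 and 0.19. Against 3 dpf, the held Gene IDs of the other ages numbered 6840 (36.7%) for 5 dpf, 6952 (37.3%) for 13 dpf and 5554 (29.8%) for 14 dpf. They were 4706 (25.2%) for 17 dpf and 1697 (9.1%) for 24 dpf. Those neither called nor held numbered 4658, 5031, 4322, 7269 and 10971, in the same order of ages. A lower held count at 17 or 24 dpf thus need not mean that more levels changed. With all libraries thinned to equal depth the order changed, with 4217 held at 16 dpf and 4781 at 13 dpf. Without replicate 1 of 3 dpf 4447 held. The bound matters most. None held within 1.5-fold by edgeR at an adjusted p under 0.05, where 3277 had an unadjusted p under 0.05 and limma-voom called 471, and 15193 (81.5%) held within 4-fold.

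The outcome followed the level. Gene IDs were split into quintiles by mean log2 CPM over all 14 libraries. In the lowest quintile, with a median of 2.53 CPM, 32.9% differed, 2.33% held without differing and 64.8% were neither. In the highest quintile, with a median of 55.1 CPM, 58.8% differed, 40.8% held without differing and 0.429% were neither. The standard error of the log2 change had a median of 0.563 in the lowest quintile and 0.152 in the highest. From the middle quintile up, where few were left undecided, the share that held without differing was 41.7, 43.9 and 40.8%. With those that both held and differed added, the held share rose with the level, at 43.6, 56.4 and 64.3%. Gene IDs with a single transcript had a median of 4.25 CPM, and 40.9% of them were neither called nor held. Among those with over 30 transcripts the median was 85.5 CPM and 5.47% were neither.

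**Figure D3:**
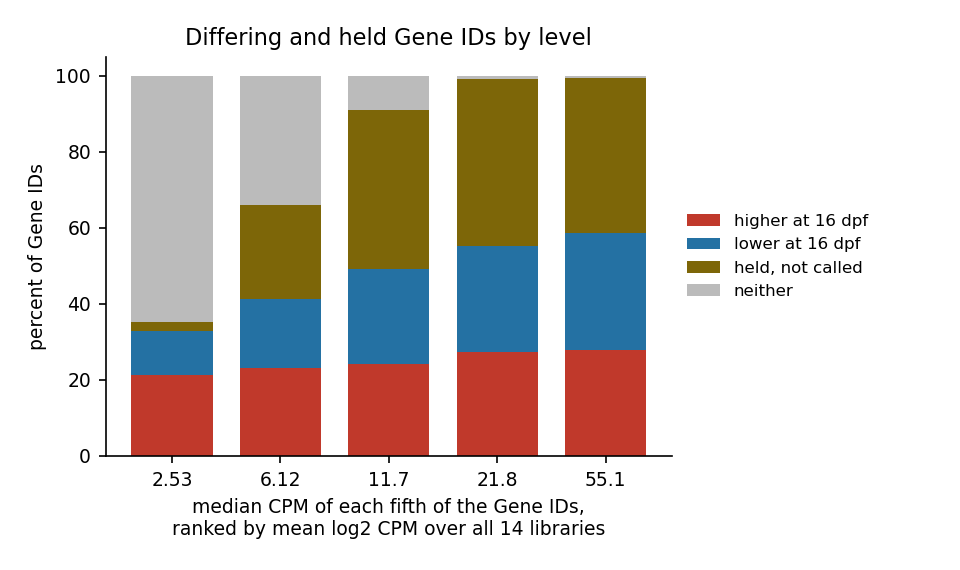
Percent of Gene IDs that were higher or lower at 16 dpf, held without differing, or neither, in each quintile of the Gene IDs by mean level over all 14 libraries, labelled with its median CPM. Undecided Gene IDs make up 64.8% of the lowest quintile and 0.429% of the highest.

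In terms of RNA, Gene IDs that held without differing were the largest class where those that differed were split by direction. Gene IDs that differed in either direction took a larger part of each library of 16 and 3 dpf than those that held without differing. Those that held without differing took 45.3% of the counts in each library of 16 dpf, against 45.2 and 44.5% at 3 dpf. Gene IDs higher at 16 dpf took 32.8 and 32.7% of the libraries of 16 dpf, against 15.3 and 14.2% at 3 dpf. Gene IDs lower at 16 dpf took 19.3 and 19.5% of the libraries of 16 dpf, against 37 and 38.9% at 3 dpf. The classes were chosen by these same counts, so the shares describe their weight and test nothing. Among the 20 most abundant Gene IDs at 16 dpf, 14 held, and among the 20 most abundant at 3 dpf 12 held, near the 64.3% held in the highest quintile. A list chosen by its level at an age tilts towards Gene IDs that are higher at that age, so its calls by direction are not read.

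The Gene ID with the largest fitted rise among those with at least 10 counts at the lower age was 108255198. It had 1310 and 1336 CPM in the libraries of 16 dpf, against 8.34 and 8.27 CPM at 3 dpf. The ages lay far apart and the replicates close together, with means of 1323 ± 18.9 CPM at 16 dpf and 8.31 ± 0.052 CPM at 3 dpf (SD, n = 2 each). The level at 3 dpf rests on 26 and 24 counts, too few for so small an SD to be read as precision. This Gene ID was 159-fold higher at 16 dpf, a log2 change of 7.31 ± 0.32 (SE; edgeR adjusted p = 8.43e-14). Its course over the other ages was not a steady rise. The libraries of 5 dpf had 1254 and 1452 CPM, those of 13 dpf 7286 and 3686, those of 14 dpf 193 and 199, those of 17 dpf 119 and 102, and those of 24 dpf 532 and 521 CPM. The level at 16 dpf thus came close to that at 5 dpf and lay above that at 14 and 17 dpf. Of its 11 transcripts a single transcript held 92.3 and 95.8% of the counts at 3 dpf and nearly all at 16 dpf.

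The Gene ID with the largest gain in CPM was 108254800. It had 11500 and 11980 CPM at 16 dpf, against 6958 and 7846 CPM at 3 dpf, and the ages did not overlap. It was 1.59-fold higher at 16 dpf, a log2 change of 0.67 ± 0.26 (SE; edgeR adjusted p = 0.0431). This call was close to the threshold and was lost when any of the 4 libraries was left out, with adjusted p of 0.0949 to 0.194, and without the 5 dpf libraries, with an adjusted p of 0.0648. With the 4 libraries alone the edgeR adjusted p was 4.04e-08. It was 0.0024 without the 24 dpf libraries and 1.86e-06 without those of 17 and 24 dpf. The libraries of 13 dpf had lower levels than either age, 3335 and 3469 CPM, and those of 14 dpf higher ones, 15920 and 16460 CPM. The libraries of 24 dpf had higher CPM than those of 16 dpf, 37880 and 17390, but lower shares of the counts, 1.48 and 0.878% against 1.53 and 1.58%. A single transcript held 97.9 and 98% of its counts at 16 dpf, against 97.9 and 97.8% at 3 dpf. Tested alone, this transcript was not called (log2 change 0.71, edgeR adjusted p = 0.0928), and the only transcript called higher held 2.05 and 1.98% of the counts at 16 dpf, against 2.07 and 2.2% at 3 dpf.

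Among falls, Gene ID 108274547 had the largest fitted change. It had 6.71 and 5.34 CPM at 16 dpf, against 288 and 563 CPM at 3 dpf. The 3 dpf libraries differed widely between themselves, with a mean of 425 ± 194 CPM against 6.02 ± 0.969 CPM at 16 dpf (SD, n = 2 each), yet both lay far above those of 16 dpf. It was 71-fold lower at 16 dpf, a log2 change of -6.15 ± 0.25 (SE; edgeR adjusted p = 7.48e-14). Levels in between were ordered by age, with 156 and 147 CPM in the libraries of 5 dpf, 87.8 and 73 CPM in those of 13 dpf, and 11.3 and 11.9 CPM in those of 14 dpf. Those of 17 dpf had 17.2 and 13.6 CPM and those of 24 dpf 16.3 and 20.7 CPM. Those CPM lie above both libraries of 16 dpf, but they rest on TMM factors below 1. As a share of the counts the order was not kept, with 0.000894 and 0.000704% for 16 dpf, 0.000947 and 0.00089% for 17 dpf, and 0.000636 and 0.00104% for 24 dpf.

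The largest loss in CPM was that of Gene ID 108271553, which led the libraries of 3 dpf. It had 10130 and 10860 CPM at 16 dpf, against 38970 and 52370 CPM at 3 dpf, and took 1.35 and 1.43% of the counts at 16 dpf, against 5.11 and 6.38% at 3 dpf. It was 4.35-fold lower at 16 dpf, a log2 change of -2.12 ± 0.29 (SE; edgeR adjusted p = 6.31e-06). Its share of the counts varied widely elsewhere: 0.148 and 0.247% in the libraries of 5 dpf, 3.6 and 3.89% for 13 dpf, 1.09 and 0.905% for 14 dpf, 30.7 and 32.9% for 17 dpf, and 18.7 and 21.4% for 24 dpf. The values of 16 and 3 dpf therefore both lie inside a much wider range. A single transcript made up at least 99.6% of its counts in all 4 libraries.

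The most abundant held Gene ID was 108266288. It had 34910 and 34710 CPM at 16 dpf, against 35930 and 39000 CPM at 3 dpf. The log2 change was -0.11, with a 95% interval of -0.62 to 0.41, inside 2-fold either way (adjusted p of the held test, edgeR fit, 0.00392). It was not steady over development. The libraries of 5 dpf had 23620 and 23920 CPM, those of 13 dpf 22830 and 23580, and those of 14 dpf 67630 and 69480 CPM. At 17 and 24 dpf it was between 88960 and 233000 CPM, where TMM factors below 1 raise the CPM of every Gene ID; its share of the counts was 6.46 and 5.82% for 17 dpf and 9.11 and 8.82% for 24 dpf, against 4.65 and 4.58% for 16 dpf. This Gene ID covers 343 transcripts, 229 of them tested, and its held sum covered 8 transcripts that were higher and 36 that were lower at 16 dpf. The higher ones held 4.18 and 4.04% of its counts at 16 dpf, against 2.07 and 2.1% at 3 dpf. The lower ones held 5.92 and 5.78% at 16 dpf, against 9.25 and 9.47% at 3 dpf.

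The held Gene ID with the narrowest interval, with 31 transcripts, shows that held and differing are not opposites. It had 63.8 and 63.6 CPM at 16 dpf, against 105 and 107 CPM at 3 dpf. The ages did not overlap, and its log2 change of -0.73, with a 95% interval of -0.98 to -0.48, was both called lower (edgeR adjusted p = 3.52e-05) and held within 2-fold (adjusted p = 0.0488). The held call was close to its threshold, and was lost with each of the 4 libraries left out, with adjusted p of 0.119 to 0.15. It was also lost with the replicate number as a block (0.0638), upper-quartile scaling (0.0684), no low-count filter (0.0743) and a filter of 1 CPM in 4 libraries (0.0541). No 5 dpf libraries (0.0592), no 20 most abundant Gene IDs (0.0986) and thinned libraries (0.105) lost it too. The held call was kept with limma-voom (adjusted p of its held test 0.033), DESeq2 (0.0197), DESeq2's size factors (0.0397) and the 4 libraries alone (0.00671). No 24 dpf libraries (0.0381), no 17 and 24 dpf libraries (0.0125), added Gene IDs with letters (0.0483) and transcripts rounded before summing (0.0493) kept it too.

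**Figure D4:**
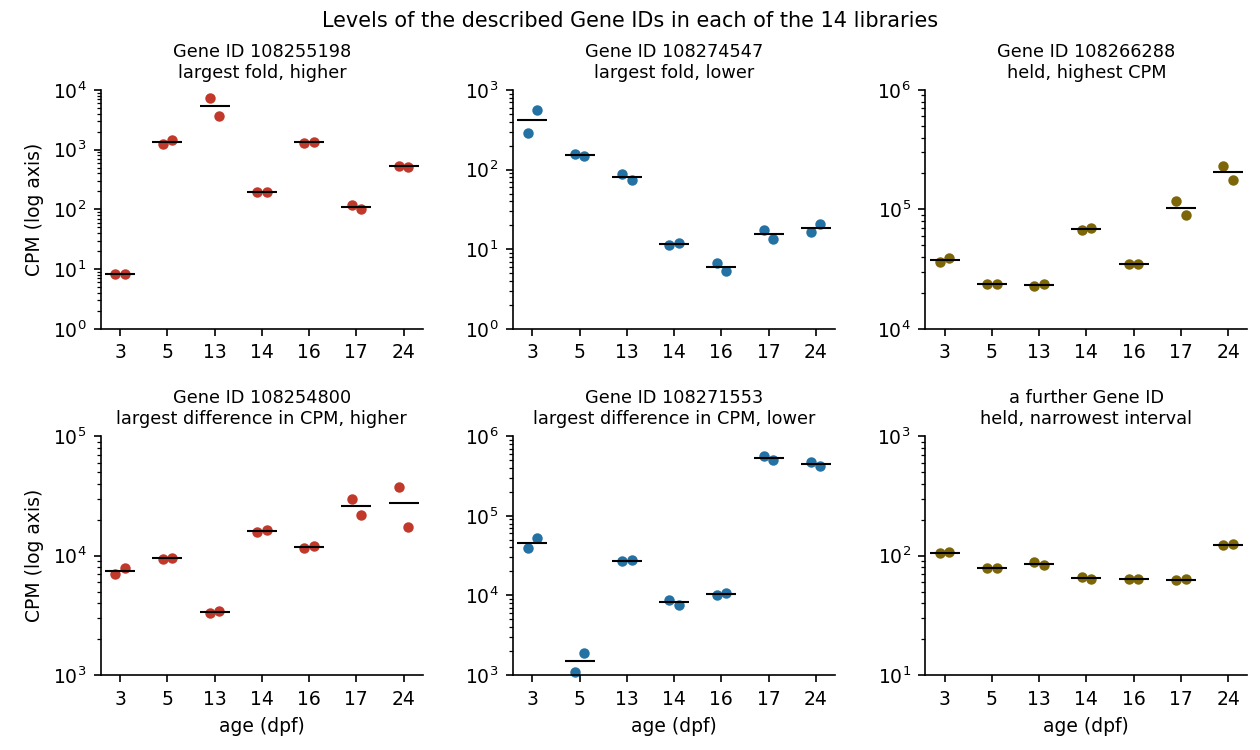
CPM (log axis) of the 6 described Gene IDs in each of the 14 libraries, by age; points are libraries and dashes are the mean of 2. Columns show Gene IDs that were higher (left), lower (middle) and held (right) at 16 against 3 dpf, and the levels at 17 and 24 dpf of Gene ID 108271553 exceed those of both ages, as its shares of the counts do.

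The levels of these classes at the other ages are given as mean log2 CPM at each age minus that at 3 dpf. The classes were chosen for the difference between 16 and 3 dpf, which by itself places 16 dpf far from 3 dpf and can pull every other age to the same side, so these medians are descriptions and no course is read from them. For Gene IDs higher at 16 dpf the medians at 5, 13, 14, 16, 17 and 24 dpf were 0.74, 0.76, 1.1, 1.19, 0.51 and 0.03, in that order. For those lower at 16 dpf they were -0.58, -0.6, -0.93, -0.88, -0.43 and -0.45. The median of all tested Gene IDs was -0.13 at 24 dpf by the fitted change.

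**Figure D5:**
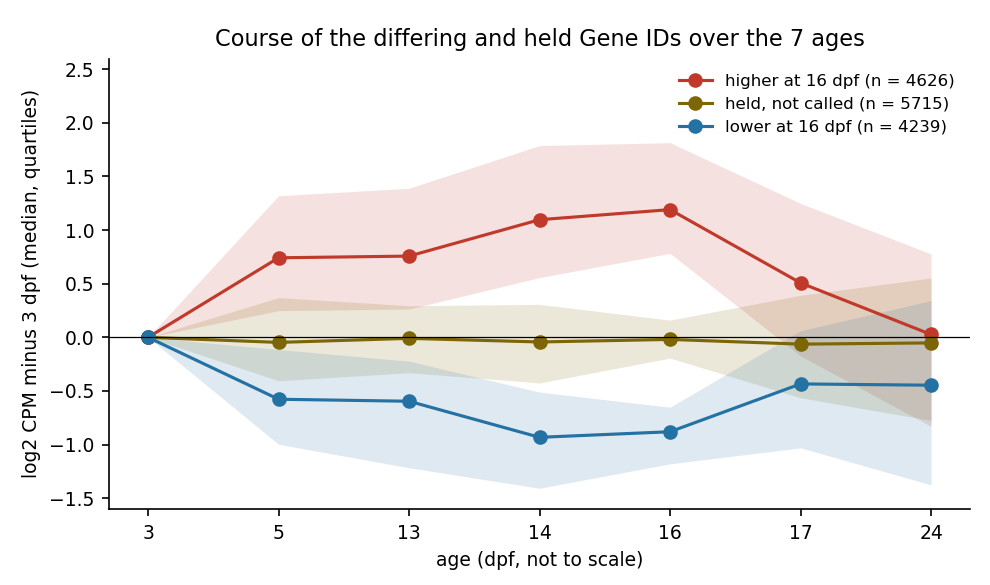
Mean log2 CPM at each age minus that at 3 dpf, for Gene IDs that were higher (4626), held without differing (5715) or lower (4239) at 16 against 3 dpf; points are medians over Gene IDs and bands the quartiles. The distance of the higher and lower Gene IDs from 0 at 16 dpf, 1.19 and -0.88, is fixed by the choice of the classes, and all values share the libraries of 3 dpf.

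Comparisons with no library of 16 or 3 dpf in them gave values for the same classes from other libraries, though in the same fit with its shared spread. For 14 against 5 dpf, 27.1% of all tested Gene IDs were called higher and 28.7% called lower by edgeR at 14 dpf. Of the Gene IDs higher at 16 than at 3 dpf, 2220 (48%) were higher and 795 (17.2%) lower at 14 dpf. Of those lower at 16 than at 3 dpf, 534 (12.6%) were higher and 1975 (46.6%) lower. The prevailing directions were the opposite ones for 17 against 14 dpf. Both comparisons hold the libraries of 14 dpf, on opposite sides, so a reversal is partly built in. With 25.5% of all tested higher and 25.9% lower at 17 dpf, 464 (10%) of the Gene IDs higher at 16 than at 3 dpf were higher and 2237 (48.4%) lower, and of those lower at 16 than at 3 dpf 1959 (46.2%) were higher and 583 (13.8%) lower. For 13 against 5 dpf the shares lay closer to those of all tested Gene IDs, 25.1% higher and 28.4% lower at 13 dpf. They were 1458 (31.5%) higher and 1174 (25.4%) lower for the Gene IDs that were higher at 16 dpf. For those lower at 16 dpf they were 989 (23.3%) higher and 1479 (34.9%) lower. The comparison of 17 against 5 dpf holds no library of 14 dpf, but shares those of 5 and of 17 dpf with the comparisons above. In it, 28.4% of all tested were higher and 28.8% lower. There, 1138 (24.6%) of the Gene IDs higher at 16 dpf were higher and 1635 (35.3%) lower. Of those lower at 16 dpf, 1483 (35%) were higher and 1173 (27.7%) lower.

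A held level at these ages did not mean a steady course. For 13 against 5 dpf, 4055 of the 7130 held Gene IDs (56.9%) differed, against 53.5% of all tested, and for 14 against 13 dpf 3495 (49%) differed, against 47.8%. These shares that differed are near the background. Held within 2-fold for 13 against 5 dpf were 52.9% of them, against 36.4% of all tested. For 14 against 13 dpf the held shares were 58.9 and 39.1%. The held test favours small standard errors, so these higher shares are partly built in. The median standard error of the log2 change was 0.183 in held Gene IDs, against 0.241 over all tested. The range of mean log2 CPM over 5, 13, 14, 17 and 24 dpf had a median of 1.43 in held Gene IDs, against 1.77 over all tested, 2.01 in those higher and 1.81 in those lower at 16 dpf. The held test favours abundant Gene IDs, whose range carries less noise, so the range was also taken at like level. At like level held Gene IDs are still picked for small spread among replicates, estimated over all 14 libraries. Those not held include those that differed. A smaller range is thus partly built in, and the values are descriptions. From the second to the highest quintile its median was 1.74, 1.42, 1.34 and 1.41 in held Gene IDs, against 1.92, 1.75, 1.77 and 1.91 in those not held. In the lowest quintile it was 2.65 in the 87 held, against 2.59 in those not held. Of the held Gene IDs 1822 (25.6%) ranged over more than 2 log2 units across those 5 ages, against 41.6% of all tested. Over all 7 ages, 1629 held Gene IDs (22.8%) kept a range under 1 log2 unit, against 11.8% of all tested, although a small difference between 16 and 3 dpf helps to give such a range.

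Transcripts were also tested one by one. Each sum is the total of its transcripts' counts, so likeness in direction between them is largely built in and tests nothing. Of 42923 transcripts tested, 12583 (29.3%) differed between 16 and 3 dpf, 6557 upward and 6026 downward (edgeR with the same threshold). Among the 8785 Gene IDs with at least 2 tested transcripts, 330 (3.76%) had transcripts that moved both ways. Of the 8785, 26.9% had transcripts moving up alone, 27.4% down alone, and 41.9% had no called transcript. Of the 3317 such Gene IDs whose sum held without differing, 2575 (77.6%) had no called transcript and 156 (4.7%) had transcripts moving both ways. In those 156, 243 transcripts were higher, with a median log2 change of 1.17, and 387 lower, with a median of -1.64, under sums that stayed within 2-fold. The sums that rose had transcripts moving up alone in 2030 of 2276 Gene IDs (89.2%) and both ways in 115. The sums that fell had transcripts moving down alone in 2077 of 2522 (82.4%) and both ways in 53. Leaving out a library of 16 dpf turned the count of 330 into 226 (replicate 1) or 203 (replicate 2), and leaving out a library of 3 dpf turned it into 213 (replicate 1) or 211 (replicate 2). Reads from near-identical transcripts could be divided among them, so opposite changes within a Gene ID are uncertain.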

How the data were processed

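Whole fry of 7 ages were sequenced after depletion of ribosomal RNA, per the labels' protocols. The values are expected counts per transcript that the authors deposited in a single table, with 2.24 to 5.56% of values not whole. RSEM, Trimmomatic 0.36, FastQC, DESeq2 and CASAVA 1.9.1 appear in the submitters' processing notes, with neither role nor order. RSEM divides reads that match several transcripts among them. The sequences that reads were matched to, the assignment of Gene IDs and the use of strand: not given in the sources used here.

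Expected counts were summed per all-digit Gene ID and rounded. The filter was edgeR's filterByExpr with a minimum count of 10. All 14 libraries entered a single edgeR 4.0.16 quasi-likelihood fit (R 4.3.3, TMM scaling) with age as the only term. Transcripts were fitted the same way. Held levels were tested from the same fit's coefficients and standard errors. Likeness used log2 CPM with a prior count of 2. Scripts were tested on simulated data. Alternatives included DESeq2 1.42.0 and limma 3.58.1. Each pair of replicates was compared by a chi-square test over Gene IDs with at least 50 counts. It gave a median relative to counting noise of 1.27 at 16 dpf and 1.72 at 3 dpf.

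Gene IDs were named by rule: with no gene names at hand, per direction the called, non-overlapping Gene ID with at least 10 counts over the lower age (8086 in all) that had the largest fold, and that with the largest difference in CPM; and among held Gene IDs that with the highest CPM and that with the narrowest interval. Gene lists and tissue markers could not be matched without names. The members, tests and rule were chosen with earlier results of these data known.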

Additional observations from a re-analysis of the deposited data

Results flagged for a closer look

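Gene IDs that hold letters lie outside the comparisons, and carried counts above the limit that a count of 0 allows: 0.372 and 0.351% of all counts in replicates 1 and 2 of 16 dpf, against 0.559 and 0.532% in those of 3 dpf. When they were added to the fit, 196 of them passed the filter. Of these, 4 were called higher and 18 lower at 16 dpf (22, or 11.2%, against 46.8% of all 18840 tested in that fit). Within 2-fold 16 (8.16%) held, against 37.6%. Neither called nor held were 161 of the 196. The background covers all levels and was not matched for level, so the low shares are not read as a trait of these Gene IDs.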

How the results depend on the processing

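Of 188 alternative values, 157 were labelled the same. For single Gene IDs this meant the same side of the threshold, and the same direction for those that differed. For counts, places and percentages it meant within 1.5-fold of the reported value, so 6025 that differed, against 8865, was labelled the same. For the mean r it meant within the SD over pairs of libraries. Thinning, leaving out 24 dpf and some uses of left-out libraries and of the replicate block were chosen after seeing the data. Counts of Gene IDs that differed were 6025 to 10278 over the alternatives run on sums (12583 transcripts on transcripts alone), except for 1866 with a test beyond 2-fold, a stricter question. Held Gene IDs numbered 4217 with thinned libraries, which have fewer counts, and 0 within 1.5-fold. They numbered 8358 (47%) with the 4 libraries of 16 and 3 dpf alone and 7765 (41%) without the 17 and 24 dpf libraries. The mean r of 16 with 3 dpf was 0.836 with a prior count of 0.5, 0.886 on transcripts and 0.806 with thinned libraries. Leaving out each of the 4 libraries gave 6380 to 7042 that differed, 4447 to 5372 held, a mean r of 0.855 to 0.864, 203 to 226 Gene IDs with transcripts moving both ways, 54.3 to 58.5% of held Gene IDs that differed between 13 and 5 dpf, and a place of 7 to 8 among the 21 pairs of ages, where it is 11 with all libraries. The cause was not tested for the prior count, the transcripts or the left-out libraries. Fits with a left-out library have fewer degrees of freedom, and the lone library is assumed to vary like the other ages. The low-count filter was also rerun without that library, so the set of Gene IDs under r and the calls changed too. The correlation of same-numbered deviations between 16 and 3 dpf was 0.0121. Whether libraries of the same replicate number share a preparation was not tested. With the replicate block 8693 differed, 6967 held, and 298 had transcripts moving both ways. Transcripts gave no value for single Gene IDs, and the 3 most abundant of the described Gene IDs have none without the 20 most abundant. The parts of depth and of replicate spread at 3 dpf in the held calls were not tested apart.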
